A study of Mus musculus with 21 samples.

Results

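The data were read for 9 transcription factors of the ETS family, *Spi1*, *Ets1*, *Fli1*, *Erg*, *Elf1*, *Elf2*, *Elk4*, *Etv6* and *Gabpa*, chosen by symbol and found as 9 of the 55421 genes in the expression table. The cells were LPs, a C57BL6/J mouse lymphoid progenitor line that lacks *Ebf1* and has the potential to enter the T lineage. They were grown on OP9 stromal cells with SCF, IL-7 and Flt3L, without Notch stimulation. Every expression library, the controls included, came from LPs that carried Cas9-GFP and a retroviral pool of 2 sgRNAs, and the cells were sorted 5 days after the sgRNAs were introduced. The pools targeted luciferase (sgControl), *Lmo2*, *Zbtb1*, *Cbfa2t2* or *Cbfa2t3*, with 3 replicates for each of these 5 conditions, 15 libraries in all. In LPs without an sgRNA, ChIP-seq for Zbtb1 and for Cbfa2t3 was done in 2 replicates each with input, and 1 list of reproducible peaks was deposited for each factor. All libraries came from a single cell line, and the study's methods call the 3 replicates biologically independent without saying at which step they were separated, so that the p-values below measure the spread between these libraries within a single line.

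ETS factors share a winged helix-turn-helix DNA binding domain that recognizes a GGAA core, and cell type, partner proteins and phosphorylation decide which member acts at a given site. In blood progenitors, the Spi1 product PU.1 is needed for myeloid and early lymphoid cells and is shut off as T cells commit, whereas Ets1 is prominent in T cells. Erg and Fli1 are close relatives that act with Lmo2, Runx1 and Gata2 in stem and progenitor cells, and Etv6 is a repressor that stem cells require.

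QuantSeq reads each mRNA near its 3′ end, so that the read number does not grow with transcript length and levels of different genes can be set side by side. Values are CPM, the reads of a gene scaled to the same total in every library. The libraries held 1705416 to 2095447 reads, and 3 reads, taken as the floor of detection, were worth 1.43 to 1.76 CPM, which covers counting error only. All 8 progenitor markers (such as *Kit*, *Flt3* and *Il7r*) were expressed, with a summed level of 1222 to 1453 CPM, whereas 1 of 8 markers of OP9 stroma had a mean above 1 CPM and *Dcn* and *Col3a1* were at 0. As a check of the labels, *Zbtb1* mRNA was at 94.4, 113 and 109 CPM in the libraries labelled sgZbtb1 and 62.7, 66.6 and 55.7 CPM in sgControl, and was higher in the former (log2 fold change 0.77, limma adjusted p = 0.00102). *Cbfa2t3* mRNA was at 340.5, 344 and 364 CPM in those labelled sgCbfa2t3 and 209.7, 189 and 172 CPM in sgControl, again higher (0.88, adjusted p = 1.67e-07). *Lmo2* was at 8.48, 24.4 and 15.9 CPM against 23.2, 16.2 and 15.8 CPM and *Cbfa2t2* at 25.5, 23.9 and 16.4 CPM against 11.0, 12.2 and 12.3 CPM, with neither passing the threshold (adjusted p = 0.956 and 0.412). No targeted mRNA was called lower in its own libraries. By immunoblotting, the study reports loss of the Lmo2, Zbtb1 and Cbfa2t3 proteins in LPs given the matching sgRNAs. Protein levels are not analysed here, and the mRNA values above do not measure protein loss. The conditions are named by their labels.

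All 9 ETS factors were detected in every library. *Elf1*, which encodes an activator of lymphoid and other blood cell genes, was the most abundant at 554 ± 7.97 CPM in sgControl (SD, n = 3) and made up 51.9% of the summed level of the 9 genes. *Spi1* (115 ± 15.3 CPM) and *Fli1* (114 ± 18.7 CPM) came next and overlapped each other. *Elk4*, *Elf2* and *Etv6* followed at 78.8 ± 11.7, 74.5 ± 2.73 and 65.9 ± 12.2 CPM, and each overlapped its neighbour in this order. *Ets1* (25.6 ± 6.15 CPM) and *Gabpa* (24.6 ± 4.14 CPM) also overlapped, and *Erg* was lowest at 14.8 ± 4.33 CPM, with 17 to 84 reads per library over the 15 libraries. Read counts this low give *Erg* a counting error of 16.8% per library on average, against 3.13% for *Elf1*. The sum of the 9 genes was 1068 ± 34.2 CPM in sgControl and 1122 ± 29.6 CPM in the libraries labelled sgZbtb1, the highest of the 5 conditions.

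Each sgRNA was compared with sgControl for all 11554 genes with a mean above 1 CPM, in one limma fit of the 15 libraries on log2(CPM + 1), with Benjamini-Hochberg adjustment over all genes. For weakly expressed genes the added 1 makes a log2 fold change smaller than the ratio of the CPM values. None of the 9 ETS factors reached an adjusted p under 0.05 in any of the 4 comparisons, where 0.0173% of all genes passed for sgLmo2, 4.79% for sgZbtb1, 0.147% for sgCbfa2t2 and 0.537% for sgCbfa2t3. At an unadjusted p under 0.05, 5 of the 9 passed in sgZbtb1, of which 3 were higher and 2 were lower, against 17.6% of all genes. None passed in sgLmo2, sgCbfa2t2 or sgCbfa2t3, against 5.65%, 9.56% and 10.6% of all genes. In sgZbtb1 the 3 libraries lay wholly above or below the 3 sgControl libraries for 4 of the 9 genes, against 22.9% of all genes. This was so for 2 of the 9 in sgLmo2 (10.6% of all genes) and for none in sgCbfa2t2 (13.7%) or sgCbfa2t3 (15.8%). The median log2 fold change of the 9 was 0.10 in sgZbtb1, 0.03 in sgLmo2, 0.09 in sgCbfa2t2 and 0.01 in sgCbfa2t3, beside -0.03, 0.01, 0.00 and -0.01 over all genes tested. With edgeR on whole reads recovered from the CPM values (4.92% of all genes called in sgZbtb1, and 0.0173%, 0.147% and 0.502% in sgLmo2, sgCbfa2t2 and sgCbfa2t3), *Erg* was called in sgZbtb1 and no other member in any comparison, while 4 of 9 had an unadjusted p under 0.05 there. With DESeq2 (0.026%, 4.42%, 2.73% and 0.587% of genes with an adjusted p called in sgLmo2, sgZbtb1, sgCbfa2t2 and sgCbfa2t3) none was called, and 4 of 9 had an unadjusted p under 0.05 in sgZbtb1.

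**Figure D1:**
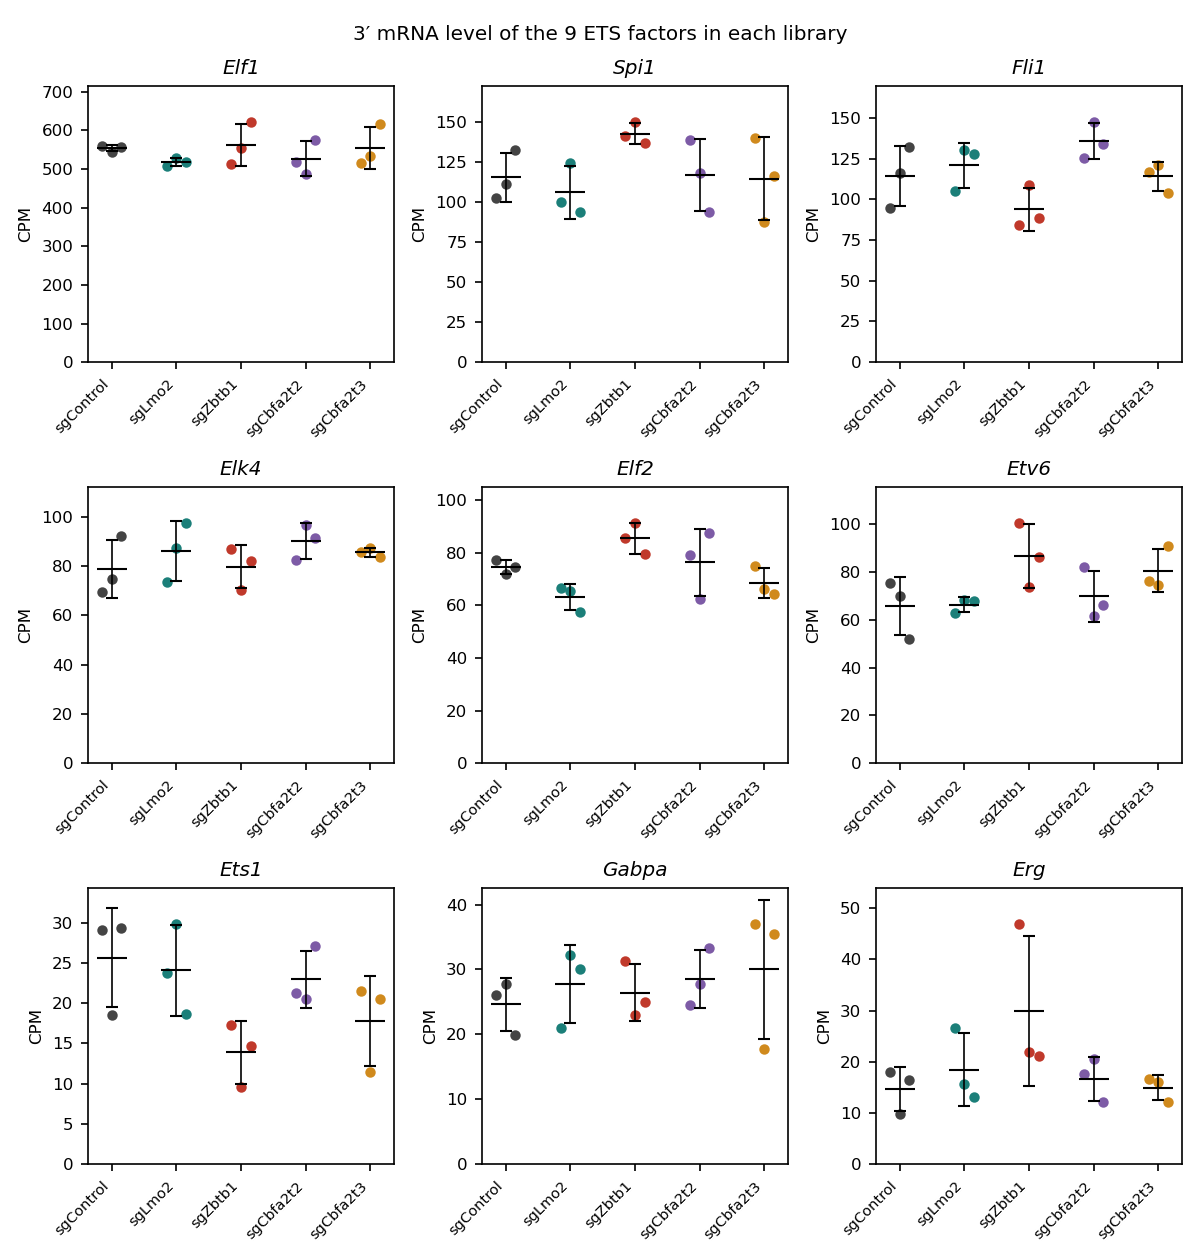
Level of each ETS factor (CPM, linear axis from 0) in the 15 QuantSeq libraries, with points for single libraries and the mean ± SD of 3 libraries per condition. In the libraries labelled sgZbtb1, *Erg* lay between 21.1 and 46.9 CPM, above all 3 sgControl libraries, and *Ets1* lay between 9.56 and 17.3 CPM, below all of them.

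*Erg* and *Ets1* had the largest differences, in opposite directions. *Erg* was at 18.0, 9.84 and 16.4 CPM in sgControl, 26.6, 15.6 and 13.1 in sgLmo2, 46.9, 22.0 and 21.1 in sgZbtb1, 17.6, 20.5 and 12.1 in sgCbfa2t2, and 16.6, 15.99 and 12.2 in sgCbfa2t3. All 3 sgZbtb1 libraries were above the 3 sgControl libraries, and 1 of them stood well above every other library. The log2 fold change in sgZbtb1 was 0.92 (95% interval 0.30 to 1.54, adjusted p = 0.0703), a 2.03-fold higher mean. Without sgZbtb1 replicate 1 it was 0.56 (adjusted p = 0.459), without sgControl replicate 2 it was 0.67 (adjusted p = 0.320), and edgeR gave 1.03 (adjusted p = 0.0349) with all libraries. Limma also called *Erg* with the replicate number as a block (adjusted p = 0.0430) and with the 6 libraries of the comparison alone (0.0411).

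*Ets1* was at 29.0, 18.5 and 29.3 CPM in sgControl, 23.7, 29.8 and 18.6 in sgLmo2, 17.3, 9.56 and 14.7 in sgZbtb1, 21.3, 20.5 and 27.0 in sgCbfa2t2, and 21.4, 11.4 and 20.5 in sgCbfa2t3. The sgZbtb1 libraries were the lowest as a group and did not overlap sgControl, and sgCbfa2t3 replicate 2 was also low. The log2 fold change in sgZbtb1 was -0.85 (-1.42 to -0.28, adjusted p = 0.0693), and that in sgCbfa2t3 was -0.52 (-1.09 to 0.05, adjusted p = 0.523), or -0.25 without sgCbfa2t3 replicate 2 (adjusted p = 0.865). Leaving out a single library moved the *Ets1* value in sgZbtb1 both ways. It was -1.06 and passed the threshold without sgControl replicate 2, the lowest control (adjusted p = 0.0473), but -0.62 without sgZbtb1 replicate 2 (adjusted p = 0.320), and -0.75 and -0.74 without sgControl replicates 1 and 3 (adjusted p = 0.206 and 0.233). Markers of T cells, of which 2 of 7 were expressed above 1 CPM and *Thy1* led, summed to 176 to 251 CPM in sgZbtb1 and 389 to 417 CPM in sgControl, with *Cd8a* at 0. Those of NK and innate lymphoid cells (3 of 5 expressed, led by *Il2rb*, with *Ncr1* at 0) summed to 9.82 to 23.5 and 51.0 to 69.1 CPM. The T-cell sums were 280 to 323 CPM in sgCbfa2t3, 329 to 368 in sgCbfa2t2 and 438 to 475 in sgLmo2. The NK and innate lymphoid sums there were 39.3 to 49.9, 33.0 to 56.3 and 66.7 to 81.2 CPM. The part of such cells in the *Ets1* values, and in the other sgZbtb1 differences here, was not tested. In such bulk libraries, fewer cells of a type and less RNA per cell cannot be told apart.

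*Fli1*, the closest relative of *Erg*, lies beside *Ets1* on chromosome 9 with 93.4 kb between the genes. It was at 94.7, 116 and 132 CPM in sgControl, 105, 130.0 and 128 in sgLmo2, 84.4, 109 and 88.4 in sgZbtb1, 126, 147 and 134 in sgCbfa2t2, and 117, 121 and 104 in sgCbfa2t3. The sgZbtb1 libraries were the lowest and the sgCbfa2t2 libraries the highest by their means, and both overlapped sgControl. Against sgControl the log2 fold changes were -0.28 (adjusted p = 0.257) in sgZbtb1 and 0.25 (adjusted p = 0.553) in sgCbfa2t2. Both depended on single control libraries. The first was -0.17 without sgControl replicate 3 (adjusted p = 0.646) and -0.40 without sgControl replicate 1 (adjusted p = 0.0999), and the second was 0.13 without sgControl replicate 1 (adjusted p = 0.862). In an F test of any difference among the 5 conditions, *Fli1* had the smallest limma p of the 9 (0.00433, adjusted 0.0766). None passed the adjusted threshold, which 4.54% of all genes did, and 5 of the 9 had an unadjusted p under 0.05, against 16.7% of all genes. Against the pooled 9 libraries with sgRNAs to *Lmo2*, *Cbfa2t2* or *Cbfa2t3*, a comparison added after the data were seen, *Fli1* was lower in sgZbtb1 by a log2 fold change of -0.39 (limma adjusted p = 0.0192), where 4.34% of all genes passed. No other member passed in that comparison, in which *Spi1* and *Erg* had adjusted p-values of 0.0593 and 0.0796.

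*Spi1* was at 103, 111 and 133 CPM in sgControl, 100.1, 125 and 93.7 in sgLmo2, 141, 150.1 and 137 in sgZbtb1, 139, 118 and 94.2 in sgCbfa2t2, and 139.9, 87.9 and 116 in sgCbfa2t3. The 3 sgZbtb1 libraries lay just above sgControl and were the closest together, while the other conditions spread over much of the range. The log2 fold change in sgZbtb1 was 0.31 (0.03 to 0.59, adjusted p = 0.219), and in the other comparisons it ran from -0.12 to 0.01.

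*Etv6* was at 75.5, 70.0 and 52.2 CPM in sgControl, 62.8, 68.4 and 67.9 in sgLmo2, 101, 73.6 and 86.4 in sgZbtb1, 82.0, 61.6 and 66.2 in sgCbfa2t2, and 76.1, 74.8 and 90.8 in sgCbfa2t3. Its sgZbtb1 libraries overlapped sgControl by 1 library, with a log2 fold change of 0.40 (0.09 to 0.71, adjusted p = 0.132). Without sgControl replicate 3 it was 0.24 (adjusted p = 0.538). In sgCbfa2t3 the value was 0.30 (adjusted p = 0.504), and 0.14 without that control library (adjusted p = 0.857).

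*Elf1* was at 559, 545 and 558 CPM in sgControl, 508, 529 and 519 in sgLmo2, 513, 553 and 622 in sgZbtb1, 518, 488 and 575 in sgCbfa2t2, and 515, 534 and 617 in sgCbfa2t3. It varied least of the 9, with condition means that differed by at most 1.08-fold. The sgLmo2 libraries lay below all sgControl libraries by a log2 fold change of -0.10 (-0.26 to 0.07, adjusted p = 0.944). Its relative *Elf2*, whose isoforms include an activator and a repressor, was at 77.2, 71.8 and 74.5 CPM in sgControl, 66.7, 65.5 and 57.5 in sgLmo2, 85.5, 91.3 and 79.5 in sgZbtb1, 79.3, 62.5 and 87.4 in sgCbfa2t2, and 75.1, 66.2 and 64.3 in sgCbfa2t3. *Elf2* was below sgControl in all sgLmo2 libraries (-0.23, adjusted p = 0.908) and above it in all sgZbtb1 libraries (0.19, adjusted p = 0.543), and neither difference passed the threshold.

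*Elk4*, a ternary complex factor that binds with Srf and is switched on by Erk, was at 69.7, 74.7 and 92.1 CPM in sgControl, 73.5, 87.5 and 97.5 in sgLmo2, 87.1, 70.3 and 82.0 in sgZbtb1, 82.5, 96.9 and 91.3 in sgCbfa2t2, and 85.8, 87.4 and 83.6 in sgCbfa2t3. Every condition overlapped sgControl, and its log2 fold changes ran from 0.02 to 0.20. The 3′ end of *Elk4* meets *Mfsd4a* on the other strand, and *Elf1* and *Gabpa* overlap *Wbp4* and *Atp5j* on the other strand at their 5′ side. The sources used here do not say whether reads were counted by strand, so that reads of such pairs may be mixed and the *Elk4* level is uncertain. *Gabpa*, the DNA binding subunit of GABP, which drives many housekeeping and mitochondrial genes, was at 26.1, 27.8 and 19.9 CPM in sgControl, 20.9, 32.3 and 30.1 in sgLmo2, 31.3, 22.9 and 25.0 in sgZbtb1, 24.5, 27.7 and 33.3 in sgCbfa2t2, and 37.0, 17.7 and 35.5 in sgCbfa2t3. All conditions overlapped sgControl here too, and the log2 fold changes ran from 0.10 to 0.22. The highest, in sgCbfa2t3, was 0.04 without sgCbfa2t3 replicate 1 (limma adjusted p = 0.984) and 0.55 without sgCbfa2t3 replicate 2 (adjusted p = 0.501).

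**Figure D2:**
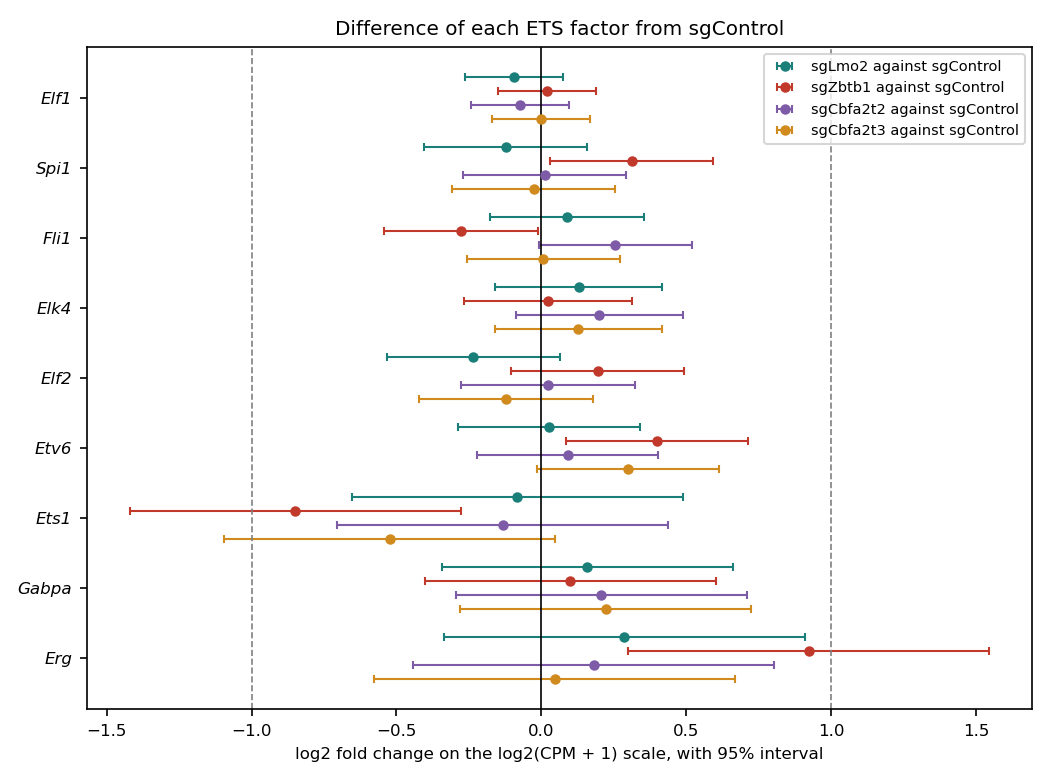
Log2 fold change of each ETS factor against sgControl on the log2(CPM + 1) scale for the 4 sgRNAs, with 95% intervals from the limma fit and dashed lines at 2-fold. The interval for *Erg* in sgZbtb1 ran from 0.30 to 1.54 and that for *Ets1* from -1.42 to -0.28, while the sgLmo2 and sgCbfa2t2 intervals of all 9 genes stayed within 2-fold.

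The intervals set what these libraries could show. In sgLmo2 and sgCbfa2t2 the 95% interval lay within a 2-fold change either way for 9 of 9 genes, against 66.5% and 66.4% of all genes. It did so for 8 of 9 in sgCbfa2t3 (65.2%), all but *Ets1*, and for 7 of 9 in sgZbtb1 (63.1%), all but *Ets1* and *Erg*. Over the 15 libraries, which share conditions and scaling, Pearson's r of log2(CPM + 1) between members ran from -0.71 (*Fli1* and *Etv6*) to 0.55 (*Fli1* and *Elk4*). The genes most like *Fli1* among 8156 others with a mean above 10 CPM were *Smim14* (r = 0.89), *Cog2* (0.87) and *Rpl37a* (0.86).

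The rest of the family was read from a list of 18 further ETS genes, of which 17 were in the table and 9 had a mean above 1 CPM. None of these 9 was called in any comparison. At an unadjusted p under 0.05, 3 of the 9 had higher values in sgZbtb1, against 17.6% of all genes in either direction. *Elf4* alone did in each of the other comparisons, against 5.65% of all genes in sgLmo2, 9.56% in sgCbfa2t2 and 10.6% in sgCbfa2t3. *Etv4*, an effector of growth factor signalling, was at 18.4, 16.3 and 16.2 CPM in sgZbtb1 and 4.64, 8.68 and 11.1 CPM in sgControl, a log2 fold change of 1.04 (adjusted p = 0.0799). *Elk3*, a relative of *Elk4*, was at 79.3, 63.6 and 65.8 against 48.2, 52.7 and 38.7 CPM (0.58, adjusted p = 0.0677). *Ets2*, the paralog of *Ets1* that neighbours *Erg* on chromosome 16, was at 81.0, 79.8 and 83.0 against 60.4, 74.1 and 46.3 CPM (0.45, adjusted p = 0.101). The sgZbtb1 libraries lay above all sgControl libraries for these 3 genes and for *Erf*, 4 of the 9 tested, where 22.9% of all genes did not overlap. *Elf4* was at 29.7 CPM on average in sgControl and 44.8 CPM in sgCbfa2t2 (0.58, adjusted p = 0.310). *Erf*, *Etv3*, *Elk1* and *Etv5*, with means over the 15 libraries of 46.2, 18.1, 12.7 and 9.22 CPM, had no unadjusted p under 0.05. *Elf3*, *Elf5*, *Ehf*, *Etv1*, *Fev*, *Spic* and *Spdef* were at 0 in all libraries.

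Of 15 listed partners and regulators of ETS factors, 14 were tested. In sgZbtb1 1 rose and 2 fell, against 4.79% of all genes, in sgLmo2 1 fell (0.0173%), and none was called in sgCbfa2t2 or sgCbfa2t3. *Runx1*, which binds beside ETS proteins at many blood cell enhancers, was at 178, 186 and 175 CPM in sgZbtb1 and 334, 324 and 303 CPM in sgControl. It fell by a log2 fold change of -0.83 (SE 0.10, adjusted p = 3.28e-09), and every other library lay above the sgZbtb1 libraries. *Lyl1*, a bHLH partner of Lmo2, was at 232, 239.5 and 213 CPM against 156, 167 and 155 CPM and rose by 0.51 (SE 0.11, adjusted p = 0.000943). *Mapk3*, the gene of the kinase Erk1 that phosphorylates several ETS proteins, was at 65.4, 80.8 and 74.1 CPM against 92.3, 112 and 112 CPM (-0.51, adjusted p = 0.0137). The *Mapk3* call was lost without sgControl replicate 2, sgControl replicate 3 or sgZbtb1 replicate 1 (adjusted p = 0.0822, 0.0824 and 0.0979). The partner called in sgLmo2 was *Irf8*, which binds DNA together with PU.1. *Irf8* was at 50.9, 58.2 and 61.9 CPM in sgLmo2 and 111, 120.4 and 116 CPM in sgControl, and its level was lower there than in every other library (log2 fold change -1.01, SE 0.13, adjusted p = 1.20e-06).

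**Figure D3:**
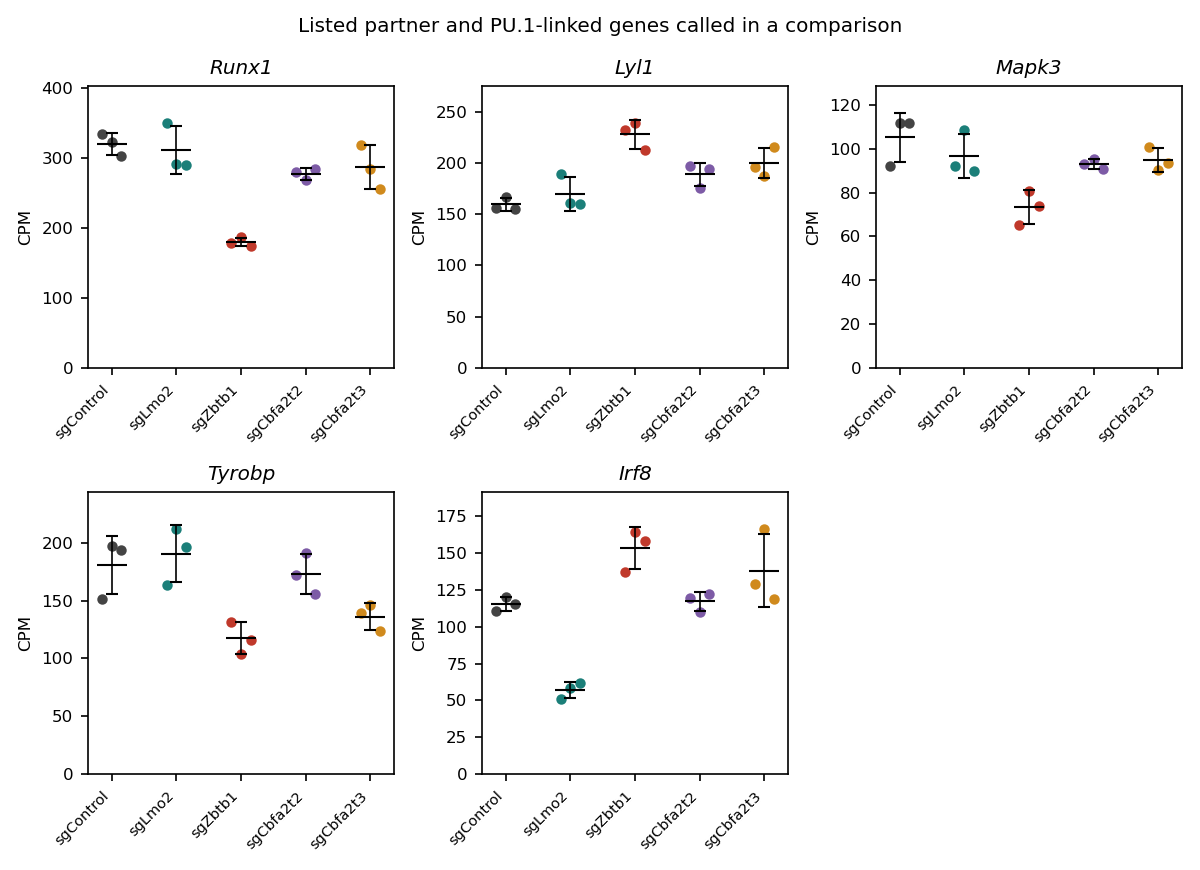
Level (CPM, linear axis from 0) of the listed partner and PU.1-linked genes called in a comparison, with points for single libraries and the mean ± SD of 3 libraries per condition. *Runx1* lay between 175 and 186 CPM in sgZbtb1 and between 256 and 351 CPM elsewhere, and *Irf8* between 50.9 and 61.9 CPM in sgLmo2 and between 110 and 166 CPM elsewhere.

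Of 13 genes listed as PU.1 targets, most of them myeloid genes but also the progenitor receptors *Flt3* and *Il7r*, 9 were tested. In sgZbtb1 1 fell, against 4.79% of all genes, and none was called in the other 3 comparisons with sgControl. The gene that fell was *Tyrobp*, which encodes the adaptor DAP12, at 132, 104 and 116 CPM in sgZbtb1 and 152, 197 and 194 CPM in sgControl (-0.61, SE 0.12, adjusted p = 0.000431), while *Spi1* itself was not called. Myeloid markers (3 of 6 expressed, led by *Itgam*, with *Elane* at 0) summed to 14.2 to 29.0 CPM in sgZbtb1, 8.22 to 18.1 CPM in sgLmo2 and 26.0 to 27.6 CPM in sgControl, and their part in the *Tyrobp* and *Irf8* values was not tested. In the F test across the 5 conditions, *Tyrobp* and *Il7r* passed (2 of 9, against 4.54% of all genes). *Il7r*, the IL-7 receptor gene, had condition means from 134 CPM in sgCbfa2t2 to 206 CPM in sgLmo2 around 161 CPM in sgControl (limma adjusted p = 0.000550). *Csf3r* was at 0 and *Csf1r*, *Cybb* and *Lyz2* had means under 1 CPM. Of 8 early genes driven by Srf and ternary complex factors, 6 were tested and none was called in any comparison. The most abundant of them, *Mcl1* and *Junb*, were at 153 and 37.6 CPM in sgControl and 182 and 37.6 CPM in sgZbtb1.

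The peak lists were then read for sites whose nearest gene was an ETS factor. Such a site existed for 6 of the 9 genes in the Zbtb1 list (9 of 5898 peaks), against 27.3% of all genes tested, and for 6 of the 9 in the Cbfa2t3 list (16 of 6077 peaks), against 20.9%. *Elf1*, *Elk4*, *Erg* and *Etv6* had a peak in both lists, as 11.5% of all genes did, *Spi1* and *Elf2* in the Zbtb1 list alone, *Ets1* and *Fli1* in the Cbfa2t3 list alone, and *Gabpa* in neither. This holds for the nearest gene given in the lists only. Cbfa2t3 peaks not assigned to *Spi1* or *Elf2* were centred 4578 bp from the *Spi1* Zbtb1 peak (score 63.1) and 847 bp from the *Elf2* promoter Zbtb1 peak (36.1). The shares of all genes do not allow for gene length, and *Etv6*, *Erg*, *Ets1* and *Fli1*, which held 3 or 4 Cbfa2t3 peaks each, span 121 to 234 kb. At least 3 Cbfa2t3 peaks were found for 2.99% of all genes, and at least 3 Zbtb1 peaks, which among the 9 only *Etv6* had, for 1.63%. Within 10 kb of the start site, 5 of the 9 had a Zbtb1 peak (21.8% of all genes) and 2 had a Cbfa2t3 peak (12.6%).

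**Figure D4:**
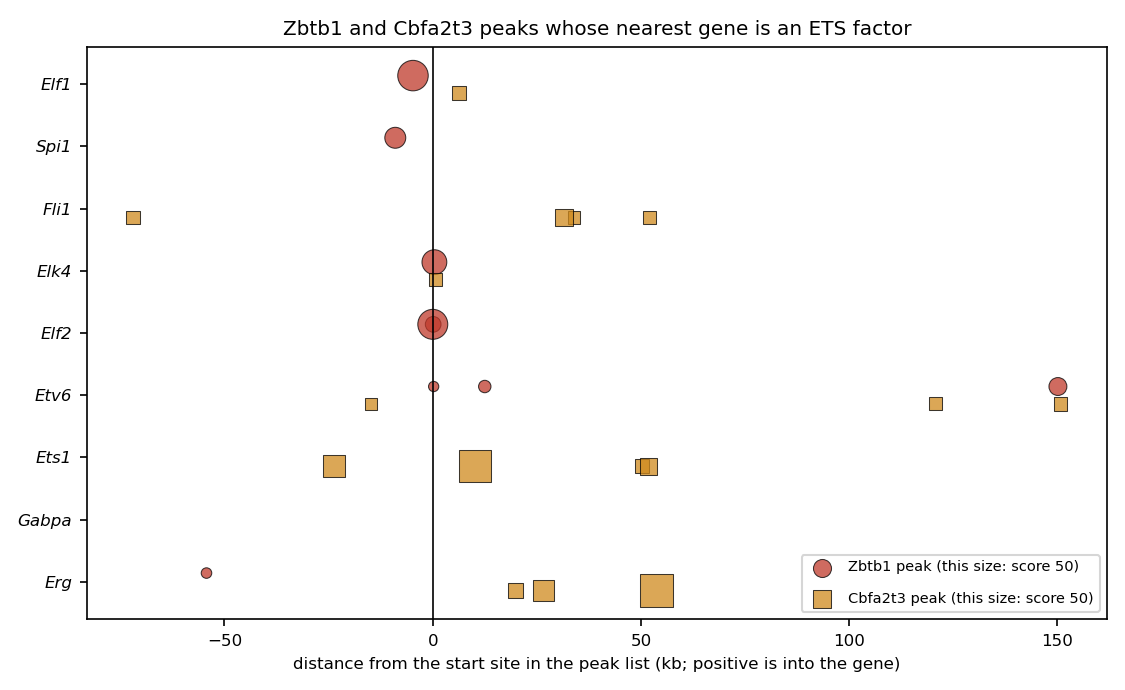
Distance of each peak from the start site given in the peak list (kb, linear axis) for the 9 ETS genes in order of their level, with circles for the 9 Zbtb1 peaks and squares for the 16 Cbfa2t3 peaks, and areas in proportion to the peak score. Zbtb1 peaks lay within 1 kb of a start site in 4 of 9 cases and Cbfa2t3 peaks in 1 of 16, with the highest Cbfa2t3 scores among these peaks inside *Erg* and *Ets1*.

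For the ETS genes, 4 of 9 Zbtb1 peaks were within 1 kb of an annotated start site, which is near the share of all Zbtb1 peaks (45.1%). Of the Cbfa2t3 peaks 1 of 16 was, beside 16.5% of all, so that the lists differ in this as a whole. In the Cbfa2t3 list, 13 of the 16 lay in introns, beside 41.3% of all peaks. Median scores, which are normalized tag counts of the peak caller with a lowest value of 15 and 20.6 in the lists, were 49.4 for the Zbtb1 peaks of ETS genes (28.0 for all) and 29.8 for the Cbfa2t3 peaks (33.2 for all).

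Among the Cbfa2t3 peaks of the 9 genes, the highest score fell at chr16:95405477-95405855 (mm10, score 166.3), in intron 3 of *Erg* and 53682 bp from its start site in the list. Intron 2 of *Erg* held a peak at chr16:95432622-95433000 (66.0) and another at chr16:95439220-95439598 (36.6). The sole Zbtb1 peak for *Erg* was weak and intergenic, 54322 bp upstream at chr16:95640730-95641100 (17.1), where RepeatMasker marks an ORR1E element. The log2 fold change of *Erg* in the libraries labelled sgCbfa2t3 was 0.05 (95% interval -0.58 to 0.67), and an effect of its intronic Cbfa2t3 sites was not tested.

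*Ets1* had 4 Cbfa2t3 peaks. The strongest was at chr9:32706029-32706407 (153.8), in intron 1 and 10176 bp from the start site in the list. A second, at chr9:32672191-32672569 (71.9), is called intergenic in the list but lies in an intron of a longer *Ets1* transcript in GENCODE vM21. The others, at chr9:32746066-32746444 (29.2) and chr9:32747693-32748071 (44.6), were in intron 6. For *Fli1*, the strongest of 3 peaks in intron 1 was at chr9:32509797-32510175 (46.9). A further Cbfa2t3 peak at chr9:32613196-32613574 (27.9) lies between the genes and is assigned to *Fli1* in the list, although the nearest coding start site in GENCODE is that of *Ets1*, 22836 bp away.

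In the Zbtb1 list, the highest score of an ETS gene was at chr14:79476270-79476640 (142.8), 4739 bp upstream of *Elf1* and inside intron 4 of the divergent gene *Wbp4*. *Elf1* had a single Cbfa2t3 peak in intron 1, at chr14:79521756-79522134 (30.3). The promoter of *Elf2* held a Zbtb1 peak at chr3:51340444-51340814 (137.8), 15 bp from the start site, and an internal start of *Elf2* that overlaps the RNA gene *4930577N17Rik* held another at chr3:51277223-51277593 (37.8). *Spi1* had a Zbtb1 peak at chr2:91087501-91087871 (67.4), intergenic in the list and at -8992 bp from the start site there, but within an intron of a longer *Spi1* transcript in GENCODE. *Etv6* had Zbtb1 peaks in its 5′ UTR at chr6:134035739-134036109 (16.2), in intron 1 at chr6:134048009-134048379 (23.7) and in intron 3 at chr6:134185628-134185998 (49.4). Of its 3 Cbfa2t3 peaks, the strongest was in the same intron at chr6:134186276-134186654 (26.6), with its centre 652 bp from that of the Zbtb1 peak and no overlap.

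A single place near an ETS gene was in both lists. In intron 1 of *Elk4*, the Zbtb1 peak at chr1:132007819-132008189 (94.6) and the Cbfa2t3 peak at chr1:132008005-132008383 (25.4) overlapped by 185 bp, with centres 190 bp apart. This was 1 of 9 Zbtb1 peaks and 1 of 16 Cbfa2t3 peaks, where 25.2% and 24.4% of all peaks overlapped the other list by at least 1 bp. The overlap is short of 50% of each peak.

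Short motifs were counted on both strands in 200 bp at the centre of each peak on the main chromosomes. The ETS core searched was GGAAGT, which was in 3 of 9 Zbtb1 peaks and 7 of 16 Cbfa2t3 peaks near ETS genes, beside 19.2% and 32.7% of all peaks in each list. The Runx core, searched as TGTGGT, was in 4 of 9 and 4 of 16 (41.3% and 43.7% of all). An E-box, searched as CAGCTG, which reads the same on both strands, was in 1 of 9 and 4 of 16 (15.4% and 47.4%). A repeat core that can overlap the Runx core, searched as TGGTGGT, was in 3 of 9 and 2 of 16 (15.8% and 6.94%). The GATA core, searched as AGATAA, was in 0 of 9 and 1 of 16 (4.30% and 6.44%). With so few peaks each count is a description only. In 100 bp, the ETS core was in 1 of the 16 Cbfa2t3 peaks (19.6% of all) and 3 of the 9 Zbtb1 peaks (9.54% of all), so that the Cbfa2t3 share lay above that of the list in the wider window and below it in the narrower one.

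The centres of 6 peaks are shown, first the site in both lists and then the highest scores outside untranslated regions, as 200 bases of the plus strand of GRCm38 (mm10). Capitals mark the ETS core, the Runx core and the E-box in either orientation.
Elk4 intron 1, Cbfa2t3 peak, chr1:132008094-132008293: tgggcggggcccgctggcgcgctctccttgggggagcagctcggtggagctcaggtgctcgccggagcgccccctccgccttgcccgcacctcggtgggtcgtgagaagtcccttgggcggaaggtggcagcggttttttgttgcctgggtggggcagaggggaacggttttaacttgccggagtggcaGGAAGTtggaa
Erg intron 3, Cbfa2t3 peak, chr16:95405566-95405765: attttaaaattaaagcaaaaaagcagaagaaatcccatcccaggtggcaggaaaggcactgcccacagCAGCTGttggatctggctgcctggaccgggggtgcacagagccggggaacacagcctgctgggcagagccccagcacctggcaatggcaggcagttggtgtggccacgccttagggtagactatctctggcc
Ets1 intron 1, Cbfa2t3 peak, chr9:32706118-32706317: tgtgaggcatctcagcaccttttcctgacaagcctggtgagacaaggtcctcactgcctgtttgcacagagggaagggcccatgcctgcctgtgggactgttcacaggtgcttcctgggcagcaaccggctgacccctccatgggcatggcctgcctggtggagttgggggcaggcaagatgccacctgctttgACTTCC
Elf1 upstream, Zbtb1 peak, chr14:79476355-79476554: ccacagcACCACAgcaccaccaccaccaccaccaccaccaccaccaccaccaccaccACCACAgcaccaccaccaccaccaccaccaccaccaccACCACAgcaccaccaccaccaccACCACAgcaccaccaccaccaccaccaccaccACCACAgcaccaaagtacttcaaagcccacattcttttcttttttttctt
Ets1 longer-transcript intron, Cbfa2t3 peak, chr9:32672280-32672479: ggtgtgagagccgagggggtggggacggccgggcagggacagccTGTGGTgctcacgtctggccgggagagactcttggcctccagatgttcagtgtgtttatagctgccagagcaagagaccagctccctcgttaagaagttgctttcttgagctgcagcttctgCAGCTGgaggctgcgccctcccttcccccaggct
Spi1 longer-transcript intron, Zbtb1 peak, chr2:91087586-91087785: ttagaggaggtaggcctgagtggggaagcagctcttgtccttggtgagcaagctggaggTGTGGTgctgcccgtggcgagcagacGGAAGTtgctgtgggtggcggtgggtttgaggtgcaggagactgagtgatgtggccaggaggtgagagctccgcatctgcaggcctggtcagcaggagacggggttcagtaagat

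The *Elk4* and *Ets1* intron 1 sites carry an ETS core near the edge of the window, that of *Elk4* lying beyond the end of the Zbtb1 peak, which has an ETS core of its own in its 200 bp. The *Erg* site carries an E-box and no ETS or Runx core, and the other *Ets1* site a Runx core and an E-box. In the *Spi1* site a Runx core and an ETS core lie in the same window. Both motifs were in 1 of the 9 Zbtb1 peaks and 1 of the 16 Cbfa2t3 peaks, beside 8.76% and 13.9% of all peaks. The *Elf1* site is a run of CCA repeats, in which the repeat core was found at 37 positions and the Runx core at 5. The intron 3 Zbtb1 peak of *Etv6* lies on a TGG repeat as well, with that core at 10 positions. Together these made 2 of 9 Zbtb1 peaks annotated as CCA or TGG repeats, beside 5.15% of all Zbtb1 peaks and 0.0165% of Cbfa2t3 peaks, and how well short reads map to such repeats was not tested.

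Promoter sequences (300 bases around each start, RefSeq, GRCm38.p6) were matched for 6 of the 9 genes, *Elf1*, *Elf2*, *Elk4*, *Erg*, *Etv6* and *Gabpa*. The ETS core was in a promoter of *Elf1*, *Elf2*, *Elk4* and *Gabpa*, 4 of 6 genes, beside 26.5% of all genes with a promoter sequence. The Runx core and the repeat core were in none of the 6 (18.9% and 5.2% of all genes).

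Peaks and mRNA differences are set side by side here without a test, with peaks counted by the nearest gene in the lists. In sgZbtb1, the genes without a Zbtb1 peak, *Ets1*, *Fli1* and *Gabpa*, had log2 fold changes of -0.85, -0.28 and 0.10. Those with 1 Zbtb1 peak, *Erg*, *Spi1*, *Elk4* and *Elf1*, had 0.92, 0.31, 0.02 and 0.02, while *Elf2* with 2 had 0.19 and *Etv6* with 3 had 0.40. In sgCbfa2t3, the genes to which no Cbfa2t3 peak was assigned, *Spi1*, *Elf2* and *Gabpa*, had -0.03, -0.12 and 0.22, although *Spi1* and *Elf2* had an unassigned Cbfa2t3 peak close by. *Elf1* and *Elk4* with 1 peak had 0.00 and 0.13, *Erg* and *Etv6* with 3 had 0.05 and 0.30, and *Ets1* and *Fli1* with 4 had -0.52 and 0.01. In the reported limma fit of all 15 libraries with condition as the sole factor, none of these values was called. That of *Erg* in sgZbtb1 was called by edgeR (adjusted p = 0.0349). Limma called it with the replicate number as a block (adjusted p = 0.0430) and with the 6 libraries of the comparison alone (0.0411). The *Ets1* value in sgZbtb1 was called by limma without sgControl replicate 2 (adjusted p = 0.0473).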

How the data were processed

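LPs were profiled by QuantSeq (15 libraries) and ChIP-seq (2 replicates per factor). For QuantSeq, the authors trimmed reads with fastp, mapped them to mm10 with STAR and scaled each library to a common total. The values deposited by the authors as TPM carry no division by length and are CPM in unit, and whole reads were recovered for 100% of values (tolerance 0.1 reads). A row without a gene identifier (1 of 55422) was left out. ChIP-seq reads were mapped with Bowtie 1.1.1, and the authors deposited the HOMER peaks found in both replicates, with a peak score. The lists carry no read counts, so no counting error is given for a peak. The distance to the start site is in the deposited lists, and the authors assigned the nearest gene.

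Genes with a mean above 1 CPM were tested with limma 3.58.1 (R 4.3.3, eBayes with trend) on log2(CPM + 1), two-sided, with condition as the sole factor. An exact permutation test of 3 libraries against 3 cannot give a p under 0.1, so that none is printed. Alternatives included edgeR 4.0.16 and DESeq2 1.42.0 on recovered reads, other filters, scaling and left-out libraries. edgeR called 2 genes for sgLmo2, 569 for sgZbtb1, 17 for sgCbfa2t2 and 58 for sgCbfa2t3. Simulated data of sgZbtb1 against sgControl held 200 changed genes among 11554, drawn only from genes with a mean above 10 CPM. For these, 76% of 2-fold and 100% of 4-fold changes were called, with 11 unchanged genes. The members are named with all values; other ETS genes with a mean above 10 CPM in a condition, and listed partners and targets where called, are named (for a list with none, the 2 most abundant). *Il7r* and the ETS and PU.1-linked genes with means under 10 CPM in every condition were named after their values were seen. Members, lists and tests were chosen with earlier results of these data known. Peak sequences were read with pysam 0.24.0.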

Additional observations from a re-analysis of the deposited data

How the results depend on the processing

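In sgZbtb1 the count of called ETS genes was 0 (554 genes called in all) and became 1 (*Erg*) with the replicate block (709 in all), with edgeR (569) and with the 6 libraries alone (690), and 1 (*Fli1*) against the 9 other sgRNA libraries (501), an alternative added after the data were seen. Leaving out single libraries gave 0 to 1 there, with 306 to 604 genes called in all, and the 1 was *Ets1* without sgControl replicate 2 (353 in all). In the F test it gave 0 to 1, with 338 to 583 in all against 525 with every library, and the 1 was *Fli1* without sgLmo2 replicate 1 (560 in all). The replicate block also gave 1 in the F test (*Fli1*, adjusted p = 0.0336, 718 in all). In the other 3 comparisons it stayed at 0 under every alternative run. The labels do not say whether libraries of the same replicate number were made together, and the reported fit leaves the number out. The mean r of deviations was small, 0.0279 for the same number and -0.0139 for different numbers. Yet 14 of 15 libraries correlated best with their own number. The counts of 0 in sgZbtb1 and in the F test therefore hold for the fit without the block. Of 288 single values of the members under the alternatives other than leaving out a library, 8 changed sign, all with a log2 fold change within 0.03 of 0 in the analysis reported. With single libraries left out, 33 of 540 did, for log2 fold changes of up to 0.18. The count of ETS genes with a Cbfa2t3 peak was 2 within 10 kb of the start site. The site in both lists was lost (0) with an overlap of at least 50%, with centres within 100 bp, and with a score of at least 30 in both lists. In windows of 100 bp, the ETS core was in 6.25% of the 16 Cbfa2t3 peaks (19.6% of all) and the E-box in 0% of the 9 Zbtb1 peaks (7.96% of all), while the ETS core stayed at 33.3% of the 9 Zbtb1 peaks (9.54% of all). The cause was not tested where the setting does not show it. DESeq2 gave an adjusted p for 1 of the 9 genes in sgCbfa2t2 and left the others without one. At 17 to 84 reads per library, *Erg* could change by 2-fold or more and not be called.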

Other observations

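The ratio of *Erg* to *Ets1* within each library was looked at after their values were seen. Its log2 was below 0 in all 3 sgControl libraries (-0.81 ± 0.11, SD, n = 3) and above 0 in all 3 libraries labelled sgZbtb1 (1.05 ± 0.48), with values from 0.52 to 1.44. In the other conditions it ran from -0.93 to 0.16 in sgLmo2, from -1.16 to 0 in sgCbfa2t2 and from -0.75 to 0.49 in sgCbfa2t3. The highest library in sgZbtb1 rests on 84 reads for *Erg*, and no test was run on the ratio.

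Other ETS genes also had peaks. *Elk3* was the nearest gene of 2 Zbtb1 peaks, with a highest score of 205.1, above that of any of the 9 genes described. *Spib*, a close relative of *Spi1* at a mean of 3.93 CPM, was the nearest gene of a Cbfa2t3 peak with a score of 148.6, and of a weak Zbtb1 peak (18.6). *Elf4* was the nearest gene of 2 Cbfa2t3 peaks with a highest score of 91.3. *Elf3*, at 0 in all libraries, was the nearest gene of 2 peaks in each list, with highest scores of 49.3 (Zbtb1) and 41.5 (Cbfa2t3).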
